A study of Homo sapiens with 33 samples.

Results

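The genes described here act in base excision repair, and 2 of them encode poly(ADP-ribose) polymerases. They are the DNA glycosylase genes UNG, OGG1, NEIL1, NEIL2 and NEIL3, the AP endonuclease gene APEX1, the gap-filling polymerase gene POLB, the scaffold gene XRCC1, and PARP1 and PARP2. The genes were taken by name from the pathway, with earlier results of these data known, and make up 10 of the 58302 genes in the expression matrix. All 10 reached 100 CP20M (read counts scaled to 20000000 per library) in at least 1 of the 33 libraries and were among the 17803 genes tested.

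Base excision repair removes small lesions such as oxidized, deaminated or alkylated bases. A glycosylase cuts the damaged base off the sugar, APEX1 incises the strand at the abasic site, POLB fills the gap, and a ligase held by the XRCC1 scaffold seals it. PARP1 and PARP2 bind DNA breaks and build chains of ADP-ribose that recruit XRCC1 and its partners. A long-patch branch hands the gap to proteins of DNA replication, among them PCNA, FEN1 and LIG1.

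RNA was sequenced from established human cell lines of malignant pleural mesothelioma (MPM), a tumour of the lung lining, treated with palbociclib, an inhibitor of the cell cycle kinases CDK4 and CDK6. The sensitive lines were H2052, H2452, H28 and MSTO-211H, all of MPM. The resistant lines were MPP89, an RB1-mutated MPM line, and MeT-5A, which derives from mesothelial cells and was immortalized with SV40. There were 14 pairs of a DMSO and a palbociclib library from the same experiment, 2 of H2052, 3 each of H2452, H28 and MSTO-211H, 2 of MPP89 and 1 of MeT-5A. Cells received 1 µM palbociclib or 0.1% DMSO for 9 or 10 days. In 4 further libraries, 1 per sensitive line, cells treated for 10 days were kept without the drug for 48 h (washout), and 1 further library was of untreated MeT-5A cells. The pairs of the experiments with a washout had 10 days of treatment. All other pairs, including those of both resistant lines, had 9 days. The part of this duration in the responses was not tested. No line carried an engineered change beyond the SV40 immortalization of MeT-5A, and the resistant class rests on 1 tumour line and 1 mesothelial line.

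Values are CP20M, which the authors made by scaling each library to the same total, so that column totals lay between 20007662 and 20021400 and do not show depth. Gaps among the low whole numbers placed 23 libraries at between 12700000 and 19700000 counted reads, and the other 10 showed no gaps. At the lowest depth 1 read was worth 1.57 CP20M. Tests used limma on log2(CP20M + 10), and a gene was called when its Benjamini-Hochberg adjusted p, taken over all 17803 genes, was under 0.05 and its fold change was over 1.5. The same scale is meant by every log2 value below. Of 8 mesothelial markers, 2 to 5 had a mean of at least 100 CP20M over the control libraries of each line, 2 in MSTO-211H and 3 in MeT-5A, while 0 of 3 endothelial and 0 of 3 lung epithelial markers did in any line. Of 4 leukocyte markers, 1 did in each of H2452, MPP89 and MeT-5A.

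The glycosylase genes lie apart in the genome (GRCh38, GENCODE 44 annotation). UNG (ENSG00000076248) is on chromosome 12 from 109097597 to 109126725, OGG1 (ENSG00000114026) on chromosome 3 from 9749944 to 9788219, and NEIL1 (ENSG00000140398) on chromosome 15 from 75346955 to 75357115. NEIL2 (ENSG00000154328) is on chromosome 8 from 11769639 to 11787345 and NEIL3 (ENSG00000109674) on chromosome 4 from 177309874 to 177362936. APEX1 (ENSG00000100823) and PARP2 (ENSG00000129484) are both on chromosome 14, from 20455191 to 20457772 and from 20343615 to 20357904. POLB (ENSG00000070501) is on chromosome 8 from 42338454 to 42371808, XRCC1 (ENSG00000073050) on chromosome 19 from 43543311 to 43580473 and PARP1 (ENSG00000143799) on chromosome 1 from 226360210 to 226408154. XRCC1 and PARP1 are on the minus strand and the other members on the plus strand. Values were counted over whole genes, so no value refers to a particular exon or UTR.

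Some members share exonic bases with other genes. OGG1 shares 2175 bases, 24.9% of its exonic length, with CAMK1 on the opposite strand, and NEIL1 shares 1832 bases, 26.4%, with MAN2C1 on the opposite strand. XRCC1 shares 224 bases with ENSG00000268361 on the same strand and 482 bases with the antisense transcript ENSG00000269583. The library kit kept strand, but the strand setting of the counting is not given in the sources used here. Levels of OGG1, NEIL1 and XRCC1 are therefore uncertain by the part of the reads that could belong to these neighbours.

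Palbociclib lowered 5 of the 10 members over the 11 pairs of sensitive lines, namely NEIL3, PARP1, NEIL1, PARP2 and XRCC1, and raised 0. Over all tested genes, 9.37% were called lower and 5.58% higher. OGG1, UNG and APEX1 were also lower with adjusted p under 0.05, but by less than 1.5-fold. With these, 8 of 10 members were lower at any fold, against 33.7% of all tested genes. With median-of-ratios scaling 6 of 10 were, against 18.9%, since UNG (adjusted p = 0.105) and APEX1 (0.177) then did not pass. With line means as units UNG (0.0796), OGG1 (0.0534) and APEX1 (0.0962) did not pass either. NEIL2 and POLB did not pass the test with the deposited scaling. The median log2 change of the 10 members was -0.55, and that of all tested genes -0.11. Counts of lower pairs given below are for the deposited scaling. The share of all tested genes that were lower in all 11 pairs was not counted. From bulk RNA, fewer cells that express a gene and less RNA per cell cannot be told apart.

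NEIL3, a glycosylase for oxidized bases in single-stranded DNA that is known to be made mainly by dividing cells, fell the most of the members. In H2452 its DMSO libraries had 573, 289 and 649 CP20M and its palbociclib libraries 17, 39 and 16. In H2052 it went from 269 and 160 to 48 and 18 CP20M. In MSTO-211H the values were 191, 165 and 287 CP20M with DMSO and 88, 10 and 47 with palbociclib. In H28 the drop was smaller, from 318, 237 and 286 to 146, 134 and 162 CP20M. Within each of the 4 lines, every palbociclib library was below every DMSO library. The log2 change over the 11 pairs was -2.34 ± 0.36 (SE, adjusted p = 0.00017), a 5.07-fold decrease on the CP20M + 10 scale, and all 11 pairs were lower.

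The promoter of NEIL3 is shown because NEIL3 moved most. Words of cell cycle regulators and of common promoter elements were searched on both strands in the bases before the start site, taken from RefSeq on GRCh38.p14. They were the E2F words TTTCCCGC, TTTCGCGC, TTTGCCGC and TTTGGCGC, the CHR words TTTGAA and TTCGAA, the CCAAT box CCAAT and the GC box GGGCGG. No searched word contains another. Of 35116 RefSeq promoters, windows of 250 bases held an E2F word in 2.79%, a CHR word in 14.3%, a CCAAT box in 32% and a GC box in 42.6%. Of the 10 members, 6 had an entry. The CHR word was in 2 of these 6, NEIL3 and XRCC1, an E2F word in 0, a CCAAT box in 4 and a GC box in 5. In NEIL3 the CHR word lies 24 to 19 bases before the start, next to 4 GC boxes and 1 CCAAT box further up. A match is a run of letters and not a measured binding site. The window on the plus strand is chr4:177309624-177309873, 5′ to 3′, with matches in capitals.
NEIL3: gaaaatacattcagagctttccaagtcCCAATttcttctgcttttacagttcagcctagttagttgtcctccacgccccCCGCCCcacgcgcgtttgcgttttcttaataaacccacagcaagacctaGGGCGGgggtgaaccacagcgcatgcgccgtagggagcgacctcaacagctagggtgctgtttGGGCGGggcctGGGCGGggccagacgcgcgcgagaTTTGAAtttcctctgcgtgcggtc

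NEIL1, which removes oxidized pyrimidines, was also called lower. It had 420 and 403 CP20M in the DMSO libraries of H2052 and 177 and 210 after palbociclib. In MSTO-211H it went from 783, 575 and 627 to 295, 408 and 274 CP20M. In H2452 the DMSO libraries had 801, 775 and 575 CP20M and the palbociclib libraries 530, 543 and 386. The groups did not overlap in these 3 lines, but they did in H28, where DMSO libraries had 501, 692 and 661 CP20M and palbociclib libraries 342, 633 and 430. The share of all tested genes without overlap in 3 lines was not counted. The log2 values below are for NEIL1 alone. The log2 change was -0.73 ± 0.11 (SE, adjusted p = 0.00013), with 11 of 11 pairs lower.

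OGG1, the glycosylase for 8-oxoguanine, had a log2 change of -0.50 ± 0.09 (SE, adjusted p = 0.00057). All 11 pairs were lower, by 0.06 to 1.01 on the log2 scale. The drop was below 1.5-fold over the lines together, but OGG1 was called lower in H2052, from 649 and 692 to 407 and 384 CP20M, and in H2452, from 474, 512 and 435 to 285, 300 and 211 CP20M. UNG, which removes uracil from DNA, had a log2 change of -0.33 ± 0.08 (SE, adjusted p = 0.0039), and 10 of 11 pairs were lower. Its values spanned 706 to 1780 CP20M with DMSO and 478 to 1440 with palbociclib, so that the groups overlapped widely across lines.

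NEIL2, a glycosylase that acts in bubbles of open DNA, was the member with a positive estimate. Its log2 change was 0.22 ± 0.10 (SE, adjusted p = 0.094), with 9 of 11 pairs higher. It passed the adjusted p, below 1.5-fold, at 0.39 with median-of-ratios scaling (adjusted p = 0.0071) and at 0.33 with upper-quartile scaling (0.017). With MSTO-211H pair 3 left out it was at 0.29 (0.028). H28 made up most of this. NEIL2 went there from 310, 297 and 311 to 536, 395 and 489 CP20M, and it was called higher in the fit of that line (log2 change 0.60 ± 0.11 (SE), adjusted p = 0.041).

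APEX1, which cuts the strand after a glycosylase has acted, had a log2 change of -0.28 ± 0.06 (SE, adjusted p = 0.0028), and 11 of 11 pairs were lower. In pair 1 of H2452 APEX1 differed by only -0.0074. Its values spanned 1160 to 4184 CP20M with DMSO and 849 to 3632 with palbociclib. POLB had a log2 change of -0.13 ± 0.10 (SE, adjusted p = 0.29). It was lower in 5 pairs, higher in 5 and equal in 1, with 78 to 315 CP20M in DMSO and 75 to 292 in palbociclib libraries.

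XRCC1, the scaffold, went from 519, 665 and 623 CP20M in the DMSO libraries of MSTO-211H to 327, 352 and 291 after palbociclib. In H2052 it went from 698 and 589 to 418 and 359 CP20M, and in H2452 from 351, 353 and 369 to 217, 241 and 197. These 3 lines had no overlap between the groups. How many of all tested genes show this in 3 lines was not counted, while 6.47% showed it in all 4. In H28 the values were close, with 507, 587 and 531 CP20M in DMSO and 491, 562 and 397 in palbociclib libraries. The log2 change over 11 pairs was -0.60 ± 0.10 (SE, adjusted p = 0.00024), 1.52-fold. The call sat at the fold threshold and was lost without H2452 pair 3 (-0.58), MSTO-211H pair 2 (-0.57) or MSTO-211H pair 3 (-0.56). It was also lost with median-of-ratios scaling (-0.43) and with upper-quartile scaling (-0.49).

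PARP1, which makes most of the ADP-ribose chains at DNA breaks, fell in all 11 pairs. In H28 it went from 4557, 4549 and 4987 to 2236, 2922 and 2191 CP20M. In H2052 the DMSO libraries had 3104 and 2707 CP20M and the palbociclib libraries 1506 and 1366. H2452 went from 2252, 2103 and 2580 to 1354, 1600 and 1398 CP20M. MSTO-211H showed the smallest drop, from 4139, 4537 and 5095 to 3231, 3551 and 3069 CP20M. The log2 change was -0.75 ± 0.08 (SE, adjusted p = 1.66e-05), 1.69-fold. PARP1 and NEIL3 were the 2 members whose palbociclib libraries were all below the DMSO libraries in each of the 4 lines, which 6.47% of all tested genes also showed.

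PARP2, the second polymerase activated by breaks, had a log2 change close to that of PARP1, -0.73 ± 0.11 (SE, adjusted p = 0.00014), and was also lower in 11 of 11 pairs. In H2452 it went from 293, 277 and 371 to 161, 196 and 149 CP20M, and in H28 from 271, 240 and 267 to 135, 162 and 142. In H2052 it went from 403 and 297 to 197 and 158 CP20M. The groups overlapped in MSTO-211H, at 360, 299 and 481 CP20M with DMSO and 301, 294 and 242 with palbociclib.

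The promoters of PARP1 and PARP2, which were also called lower, are shown beside that of NEIL3. XRCC1 was called lower too, and its window, not printed here, held a CHR word, a CCAAT box and a GC box. Of the searched words the windows of PARP1 and PARP2 held only GC boxes (capitals). An E2F word was in 0 of the 6 members with an entry and a CHR word in 2, and regulation through these words was not tested. The sequences run 5′ to 3′ from GRCh38.p14 on the minus strand, chr1:226408155-226408343, and on the plus strand, chr14:20343385-20343614. They stop before the first annotated base of each gene in GENCODE 44, which leaves out 61 and 20 bases of the searched windows and 1 of the 2 GC boxes of PARP1.
PARP1: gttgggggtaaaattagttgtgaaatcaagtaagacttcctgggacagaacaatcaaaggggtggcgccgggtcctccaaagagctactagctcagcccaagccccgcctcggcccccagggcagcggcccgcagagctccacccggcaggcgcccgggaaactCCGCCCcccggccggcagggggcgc
PARP2: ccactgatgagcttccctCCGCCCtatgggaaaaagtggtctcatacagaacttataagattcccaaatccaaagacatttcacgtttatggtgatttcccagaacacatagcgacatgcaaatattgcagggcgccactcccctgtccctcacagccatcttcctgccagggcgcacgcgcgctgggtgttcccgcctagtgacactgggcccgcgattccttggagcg

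**Figure D1:**
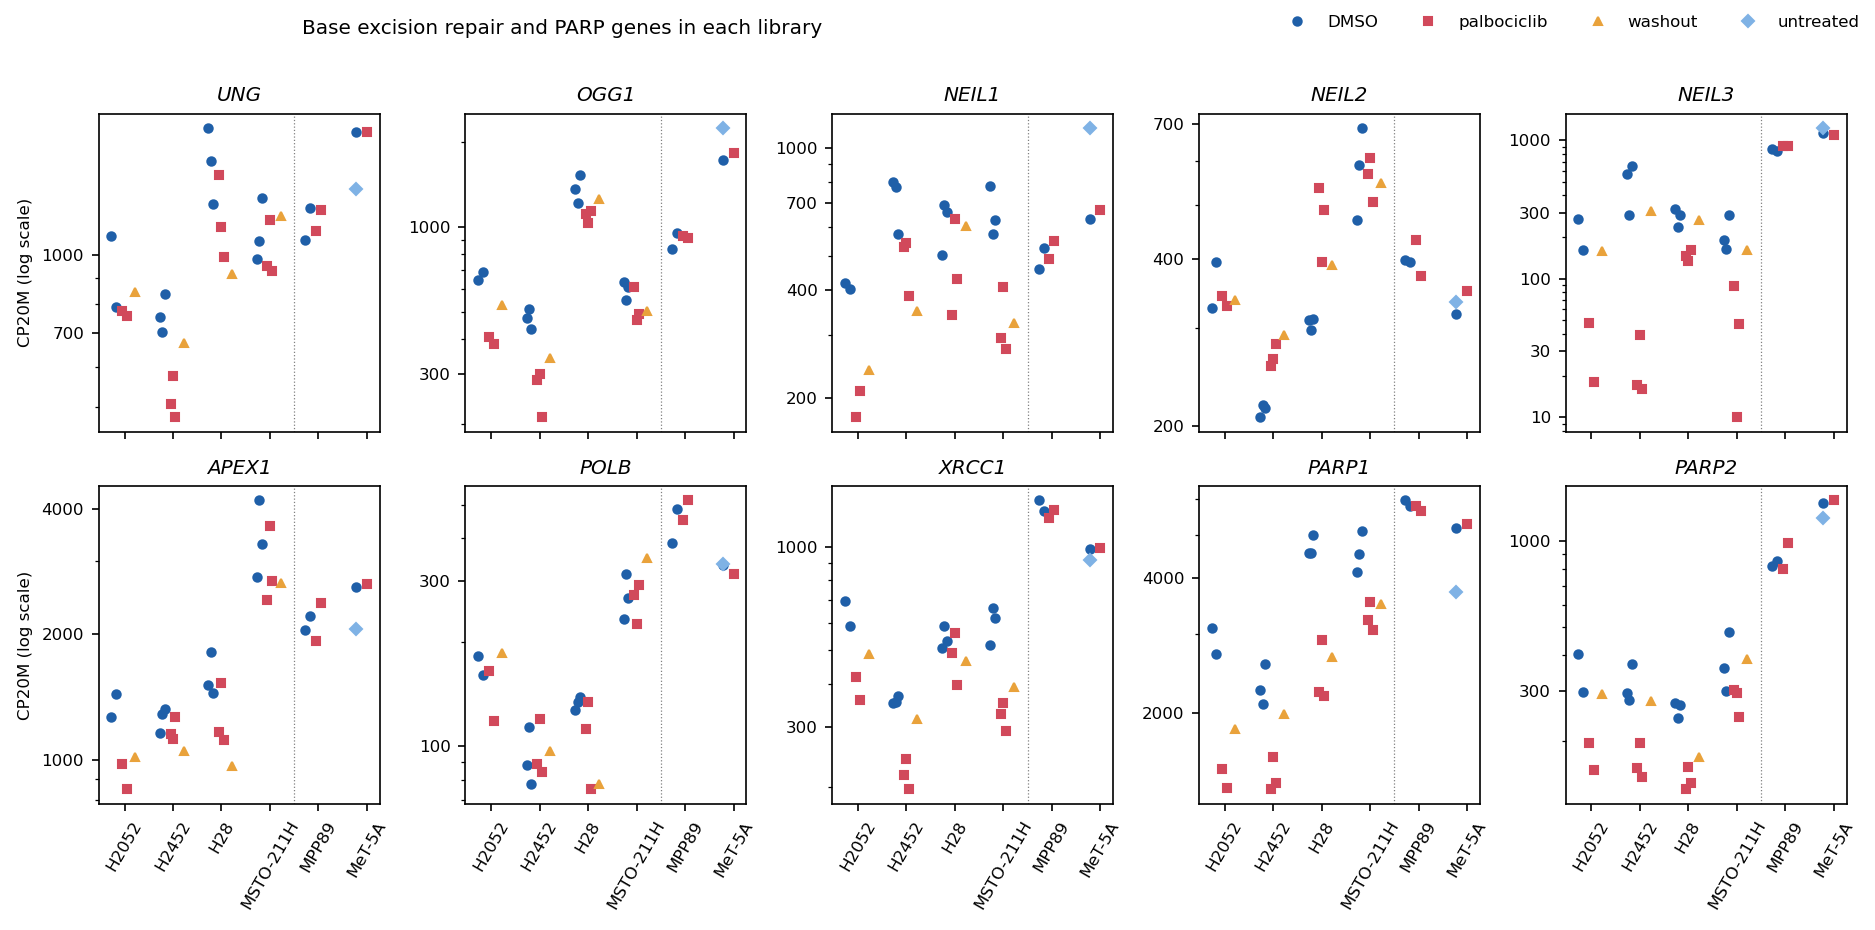
Level of each member in each of the 33 libraries (CP20M, log axis) by cell line. Points are libraries, circles DMSO, squares palbociclib, triangles washout and the diamond the untreated MeT-5A library; the dotted line separates the sensitive lines (left) from the resistant ones. In NEIL3 and PARP1 the palbociclib libraries lie below the DMSO libraries in all 4 sensitive lines.

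**Figure D2:**
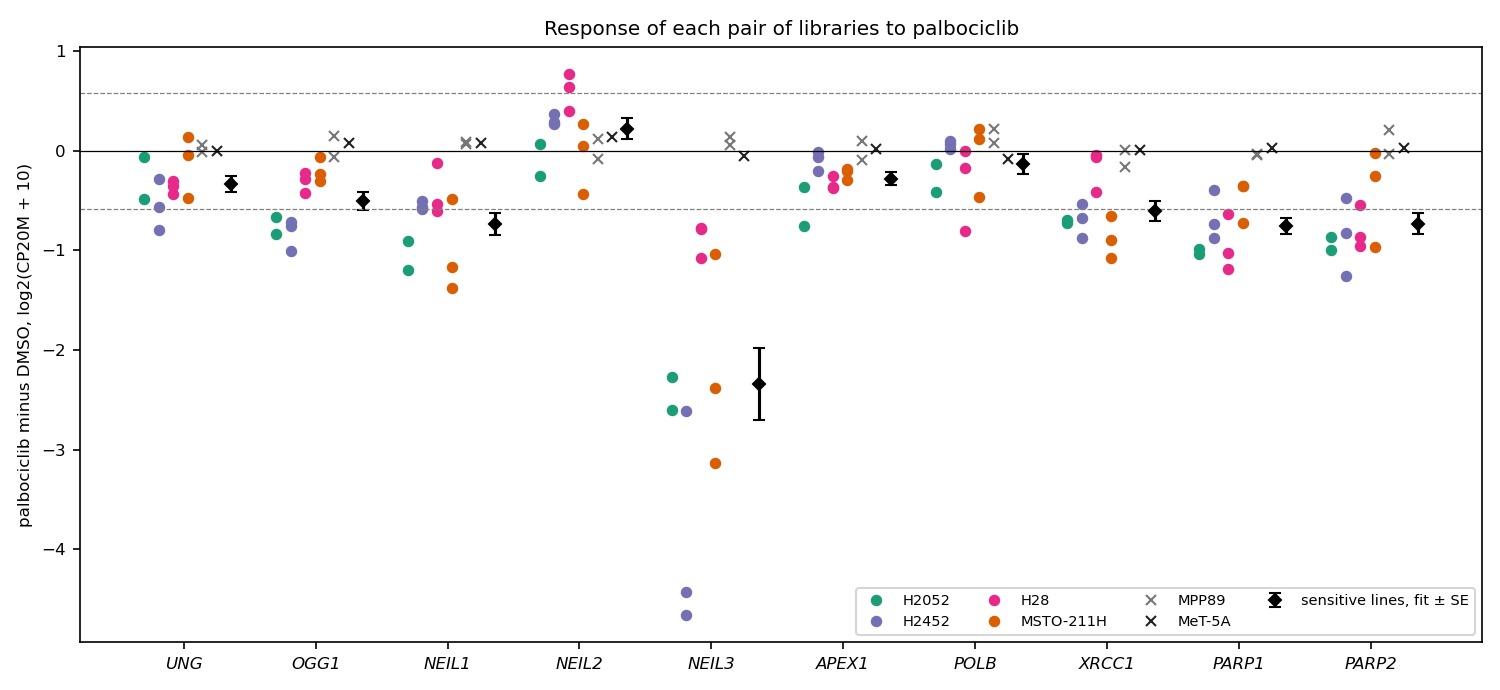
Palbociclib minus DMSO on the log2(CP20M + 10) scale for each pair of libraries. Circles are pairs of sensitive lines, crosses pairs of resistant lines, black diamonds the fit over 11 sensitive pairs with its SE, and dashed lines mark a 1.5-fold change. NEIL3 reaches -4.66 in H2452, and every cross lies between -0.17 and 0.22.

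The scaling of the libraries moved these changes by a similar amount. With median-of-ratios scaling, the median change of all genes was 0.04 in place of -0.11. Of all tested genes 5.42% were then called lower and 9.25% higher, in place of 9.37% and 5.58%. NEIL3 was the only member called (log2 change -2.20), and PARP1 (-0.58), NEIL1 (-0.56) and PARP2 (-0.56) passed the adjusted p but fell just short of 1.5-fold. Relative to the median of all genes, PARP1 was at -0.64 with the deposited scaling and at -0.62 with the other. Markers of cycling cells moved with the members. Mean MKI67 went from 8135 ± 868 to 260 ± 124 CP20M in H2452 (SD, n = 3), from 7980 to 1378 in H2052, from 9980 to 2101 in H28 and from 3501 to 738 in MSTO-211H, and their part in the members' change was not tested.

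The response of the members was compared among the sensitive lines. An F test among the 4 lines passed (adjusted p under 0.05) for 4 of 10 members, against 37.1% of all tested genes, so this share is near the background, and for 1 without the replicate block. They were OGG1 (adjusted p = 0.0095), NEIL3 (0.011), XRCC1 (0.026) and NEIL2 (0.048). The mean log2 change of NEIL3 was lowest in H2452 at -3.90 ± 1.13 (SD, n = 3). It was -2.43 ± 0.24 in H2052 (SD, n = 2) and -2.18 ± 1.06 for the 3 pairs of MSTO-211H (SD), and H28 had the smallest change at -0.88 ± 0.17 (SD, n = 3). OGG1 was at -0.83 in H2452 and -0.75 in H2052 but at -0.31 in H28 and -0.20 in MSTO-211H. XRCC1 was at -0.87 in MSTO-211H and at -0.17 in H28. PARP1 (0.091) and PARP2 (0.38) did not pass this test.

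Line by line, 6 members were called lower in H2052, where 13.0% of all tested genes were. They were NEIL1, NEIL3, OGG1, PARP1, PARP2 and XRCC1. In H2452 5 were called lower (NEIL3, OGG1, PARP1, PARP2 and XRCC1) against 10.8% of genes. In H28 3 were called lower (NEIL3, PARP1 and PARP2) against 7.34% of genes, and NEIL2 was called higher, as were 5.89% of genes. In MSTO-211H XRCC1 was the only member called lower (adjusted p = 0.037), against 7.94% of genes. NEIL3 had a 4.54-fold lower level there but an adjusted p of 0.052, and its pairs spread widely. These fits of 2 or 3 pairs were fragile, since with any pair left out 0 members were called in H28 and MSTO-211H and 0 to 2 in H2452. The share of all tested genes called in these smaller fits was not counted, so the loss may not be particular to the members.

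No member was called in the resistant lines after palbociclib. Over the 3 pairs, limma called 0 of 10 members in either direction and 0 members had an unadjusted p under 0.05. Of all tested genes 0% were called lower and 0% higher, and 1258 had an unadjusted p under 0.05. NEIL3 was at 867 and 831 CP20M in the DMSO libraries of MPP89 and at 903 and 913 after palbociclib, and at 1131 and 1093 CP20M in the pair of MeT-5A. PARP1 went from 5965 and 5786 to 5810 and 5657 CP20M in MPP89 and from 5172 to 5290 in MeT-5A. The 95% interval of the log2 change was -0.09 to 0.06 for PARP1, -0.07 to 0.17 for NEIL3 and -0.07 to 0.21 for PARP2. No member passed 1.5-fold in any of the 3 pairs, as 1.01% to 1.25% of all tested genes did. Mean MKI67 was at 9382 CP20M with DMSO and 9662 with palbociclib in MPP89. MeT-5A had 11573 CP20M with DMSO and 12821 with palbociclib.

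The difference between the responses of sensitive and resistant lines was tested as an interaction. It passed (adjusted p under 0.05) for 4 of 10 members, against 9.37% of all tested genes. They were PARP1 (log2 difference -0.74 ± 0.17 (SE), adjusted p = 0.014), NEIL1 (-0.81 ± 0.22, 0.029), PARP2 (-0.80 ± 0.21, 0.03) and NEIL3 (-2.39 ± 0.72, 0.048). OGG1 (-0.56, 0.061) and XRCC1 (-0.55, 0.077) did not pass. The count was 0 without either pair of MPP89 or without the pair of MeT-5A, while the estimates for PARP1 then lay between -0.72 and -0.75. For those fits the share of all tested genes was not counted. The units of this test were pairs, 11 of sensitive and 3 of resistant lines, and it was not run with lines as units. The resistant pairs all had 9 days of treatment and the sensitive ones 9 or 10, so class and duration are partly mixed.

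After 48 h without palbociclib the levels of NEIL3 were above those under the drug in all 4 lines. In the experiments with a washout, NEIL3 went from 160 with DMSO to 18 with palbociclib and 158 CP20M after washout in H2052, and from 649 to 16 and 306 in H2452. In H28 it went from 286 to 162 and 266 CP20M, and in MSTO-211H from 287 to 47 and 162. The fall on the log2 scale was regained by 66.9% to 99.3%. The change of 2.12 ± 0.49 (SE) against palbociclib was not called, with an adjusted p of 0.076 over 4 lines. These comparisons share the same 12 libraries, 1 per line and condition.

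PARP2 was the only member called higher after washout than under palbociclib (log2 change 0.66 ± 0.13 (SE), adjusted p = 0.046), where 1.4% of all tested genes were called higher and 0% lower. It was at 291 CP20M after washout in H2052 against 158 under the drug, at 275 against 149 in H2452, at 176 against 142 in H28 and at 386 against 242 in MSTO-211H. The call was lost when any of the 4 lines was left out. XRCC1 (0.43), PARP1 (0.35) and OGG1 (0.32) were above palbociclib in 4 of 4 lines but did not pass the test. So was POLB, which had not passed the test for a fall under the drug. The median log2 change of all tested genes was 0.085, and how many of them rose in 4 of 4 lines was not counted.

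Against DMSO, 2 members were called lower after washout, PARP1 (log2 change -0.59 ± 0.10 (SE), adjusted p = 0.0093) and NEIL1 (-0.62 ± 0.14, 0.027), where 2.95% of all tested genes were called lower. PARP1 stood at 1842 CP20M after washout in H2052, against 2707 with DMSO and 1366 with palbociclib. It stood at 1998 against 2580 and 1398 CP20M in H2452, at 2676 against 4987 and 2191 in H28, and at 3501 against 5095 and 3069 in MSTO-211H. PARP1 thus lay between palbociclib and DMSO in each line, with 24.3% to 58.2% of its fall regained. NEIL1 was close to DMSO in H28, at 605 against 661 CP20M, and below it in the other lines, at 240 against 403 in H2052, 350 against 575 in H2452 and 325 against 627 in MSTO-211H. APEX1 (-0.43, adjusted p = 0.039) was lower by less than 1.5-fold. NEIL3 was below DMSO by 0.49 on the log2 scale, with an interval from -1.59 to 0.61. Both calls held or not depending on which line was left out, with 0 members called without H2052 or MSTO-211H and 1 without H2452 or H28. Shares of all tested genes in those fits were not counted. In the same experiments MKI67 went from 4725 with DMSO to 806 with palbociclib and 6920 CP20M after washout in H2052. It went from 7680 to 177 and 8328 CP20M in H2452, from 10717 to 1816 and 4824 in H28, and from 5593 to 777 and 3093 in MSTO-211H. MKI67 was thus above DMSO in H2052 and H2452 and below it in H28 and MSTO-211H.

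**Figure D3:**
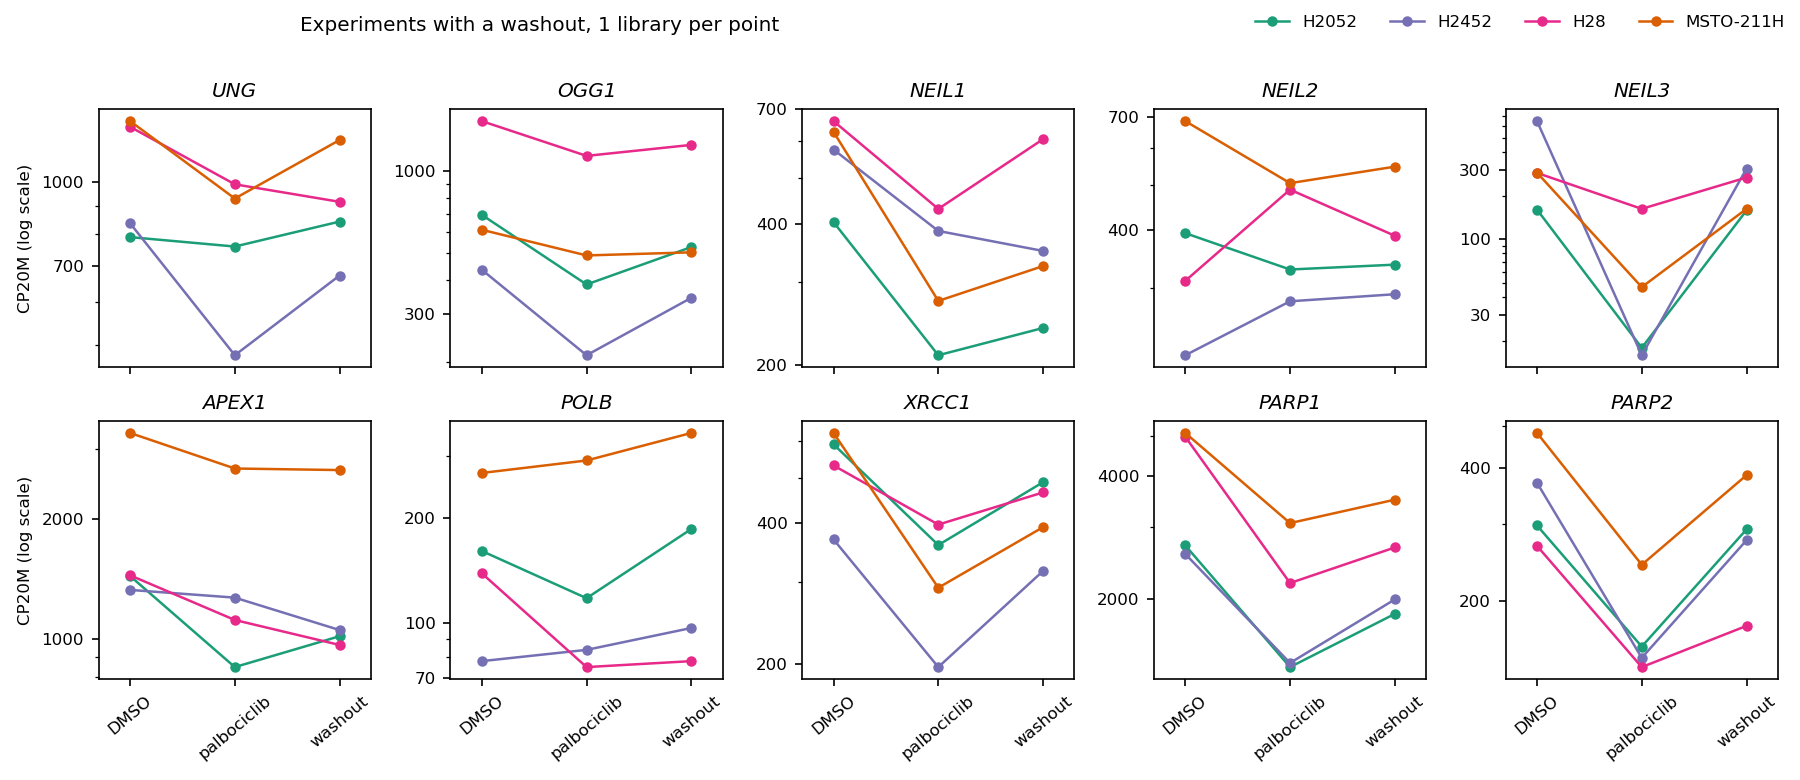
Level of each member (CP20M, log axis) in the DMSO, palbociclib and washout libraries of the same experiment, 1 line of points per sensitive cell line. In NEIL3 all 4 lines drop with palbociclib and rise after washout; PARP1 rises part of the way.

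Control levels differed among the 6 lines for all 10 members (F test, adjusted p under 0.05), as they did for 96.3% of all tested genes, so this does not set the members apart. NEIL3 varied 5.43-fold between line means, from MeT-5A (1131 and, untreated, 1217 CP20M) to H2052 (269 and 160). PARP2 varied 4.80-fold, from MeT-5A at 1361 and, untreated, 1205 CP20M to H28 at 271, 240 and 267. POLB varied 4.34-fold, OGG1 4.09-fold and XRCC1 3.62-fold, each lowest in H2452. APEX1 varied 2.65-fold, NEIL2 2.62-fold, PARP1 2.54-fold, NEIL1 2.03-fold and UNG 1.99-fold. Of 50 pairs of neighbours in the order of lines, 18 differed, or 36%, against 45% to 63% of all genes over the contrasts between any 2 lines, which are not limited to neighbours.

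For NEIL3 the order was MeT-5A, MPP89, H2452, H28, MSTO-211H and H2052, and MPP89 differed from H2452 and H2452 from H28, while the other neighbours did not differ beyond their spread. For PARP2 the order was MeT-5A, MPP89, MSTO-211H, H2052, H2452 and H28, and MeT-5A differed from MPP89 and MPP89 from MSTO-211H, while the lower 4 lines did not differ from their neighbours. PARP1 ran from MPP89 through H28, MSTO-211H and MeT-5A to H2052 and H2452, with 1 step between neighbours, MeT-5A over H2052, past the threshold. OGG1 had the most neighbours that differed, 4 of 5, in the order MeT-5A, H28, MPP89, H2052, MSTO-211H and H2452. The steps MPP89 over H2052 (limma adjusted p = 0.04997) and MSTO-211H over H2452 (0.041) were near the threshold. The part of reads shared with CAMK1 in this order was not tested. XRCC1 ran from MPP89 over MeT-5A, H2052, MSTO-211H and H28 to H2452 with 3 different neighbours, and POLB from MPP89 over MeT-5A, MSTO-211H, H2052 and H28 to H2452 with 2. For UNG (MeT-5A, H28, MPP89, MSTO-211H, H2052, H2452) and NEIL1 (MeT-5A, H2452, MSTO-211H, H28, MPP89, H2052) 0 neighbours differed. NEIL2 (MSTO-211H, MPP89, H2052, MeT-5A, H28, H2452) and APEX1 (MSTO-211H, MeT-5A, MPP89, H28, H2052, H2452) were highest in MSTO-211H, with 2 different neighbours each.

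NEIL3, PARP2, XRCC1 and POLB had all 4 control libraries of the resistant lines above all 11 of the sensitive ones, as had 6.59% of all tested genes. The lowest resistant and the highest sensitive library had 831 and 649 CP20M for NEIL3, 821 and 481 for PARP2, 918 and 698 for XRCC1, and 334 and 315 for POLB. With the 6 lines as units, the resistant lines were higher by 1.82 for NEIL3, 1.67 for PARP2 and 1.09 for XRCC1 on the log2 scale. Each had an exact two-sided permutation p of 0.0667, the smallest that 15 choices of 2 lines allow, and 0.222 after adjustment over the 10 members. POLB was higher by 1.24 (exact permutation p = 0.133, adjusted 0.333). With 2 lines against 4, this permutation test cannot give a p below 0.0667.

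The rest of the pathway was read from a list of 36 other genes, all of which were tested. Over the sensitive pairs 17 of the 36 were called lower and 0 higher, where 9.37% and 5.58% of all tested genes were, and their median log2 change was -0.50, against -0.11. With median-of-ratios scaling 10 of the 36 were called lower, 9 of them long-patch genes, against 5.42% of all tested genes. With upper-quartile scaling 10 were, against 6.38%. The calls of NTHL1, TDP1, LIG3, HPF1, POLD2, RFC2 and RFC5 were the 7 lost with either scaling. The long-patch and replication-linked genes made up most of this, with 12 of 16 called lower. They were PCNA (-1.54), the sliding clamp, LIG1 (-1.37), the replicative ligase, FEN1 (-0.78), the flap endonuclease, the polymerase genes POLE2 (-1.35), POLD1 (-1.03), POLD3 (-0.93), POLE (-0.78) and POLD2 (-0.64), and the clamp loader genes RFC3 (-1.27), RFC4 (-1.22), RFC2 (-0.68) and RFC5 (-0.63). LIG3 (-0.70), the partner ligase of XRCC1, was called lower in the short-patch list of 2. Of 6 other glycosylases 2 were called lower, MUTYH (-0.85) and NTHL1 (-0.59), and of 5 end-processing genes 1, TDP1 (-0.69). Of 7 other genes of ADP-ribosylation 1 was called lower, HPF1 (-0.68), the cofactor that lets PARP1 and PARP2 modify serine, while their median was -0.05.

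By line, 14 of the 36 were called lower in H2052 (13.0% of all tested genes) and 15 in H2452 (10.8%). There were 13 in H28 (7.34%), 5 in MSTO-211H (7.94%) and 0 in MPP89 or over the resistant pairs, where the median of the 36 was 0.01. Of the 16 long-patch genes, 10 were called lower in H2052, 12 in H2452 and 13 in H28, but 2 in MSTO-211H. In MSTO-211H PCNA (-0.68) and FEN1 (0.23) were not called. After washout 4 were called higher than under palbociclib, where 1.4% of all tested genes were, PCNA (1.25), POLE2 (1.07), LIG1 (1.07) and POLD3 (0.81). Against DMSO 2 were called lower, where 2.95% of all tested genes were, POLD2 (-0.67) and LIG3 (-0.65).

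**Figure D4:**
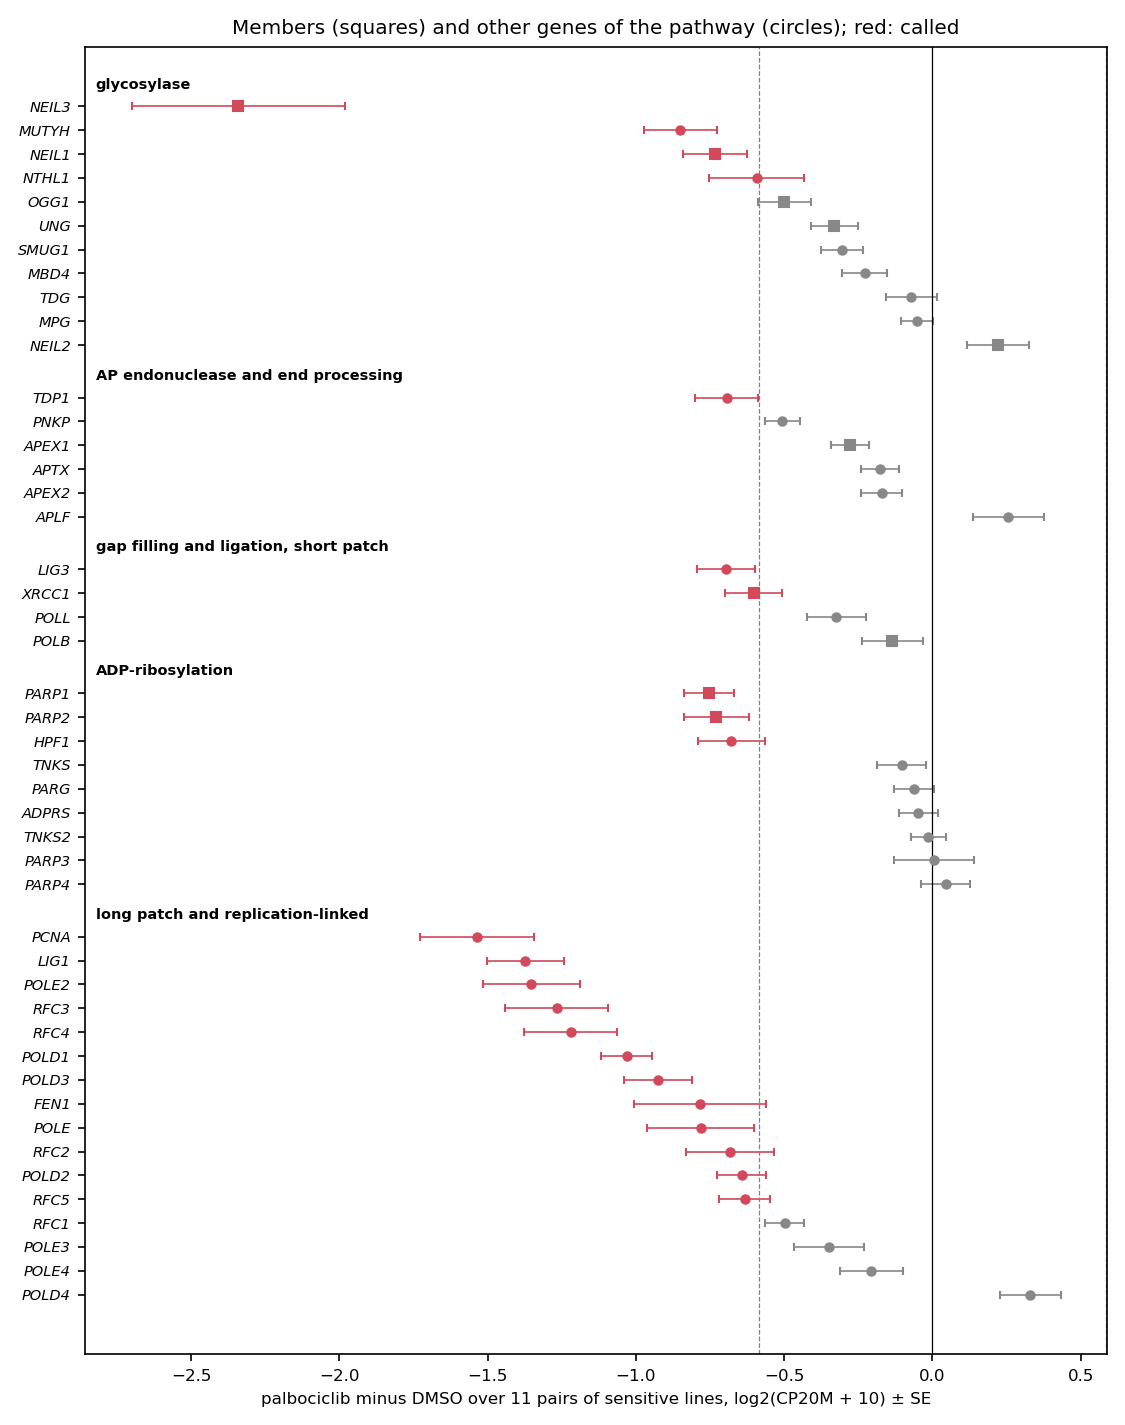
Log2 change with palbociclib over 11 pairs of sensitive lines, with SE, for the 10 members (squares) and 36 other genes of the pathway (circles), grouped by role. Red marks called genes and dashed lines a 1.5-fold change. NEIL3 has the lowest estimate, and 12 of 16 long-patch genes are red.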

How the data were processed

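Paired-end reads of directional libraries had been trimmed with Trimmomatic 0.36, mapped with STAR 2.5.3 to GRCh38 with the Ensembl 90 annotation and counted per gene with HTSeq 0.9.1, per the methods of the study. The authors scaled each library to a total of 20000000 reads (CP20M) and rounded up, so the deposited values are a normalized score and not counts of reads. The authors used DESeq2 for differential expression. That model was not used here, since scaled and rounded values are not counts.

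The filter kept genes that reached 100 CP20M in 1 or more libraries. Values were fitted as log2(CP20M + 10) with limma 3.58.1 (lmFit, eBayes with trend) in R 4.3.3, with the experiment as a block because the study paired treated and control samples within experiments. As a check of this pairing, deviations of same-numbered libraries from their group means correlated across genes with r of 0.18 to 0.78. The washout fit had the line as a block. Lines were compared with an exact permutation test in Python 3.11.15, two-sided on the absolute difference. The functions were tested on simulated data. In no group did replicate libraries share more than 4.33% of their values. The study describes replicates as independent experiments.

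The members and gene lists were chosen with earlier results of these data known. The genes most like UNG over libraries, and most like PARP1 over paired differences, are not reported here. All members are named, and of the 36 other genes those called over the sensitive lines. Alternatives were no replicate block, other pseudocounts, filters and scalings, eBayes without trend, units that are lines in place of pairs, and fits with a pair or a line left out. Promoter sequences are from RefSeq. Positions are from GENCODE 44. Figures were drawn with matplotlib 3.10.9.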

Additional observations from a re-analysis of the deposited data

Results flagged for a closer look

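The response to palbociclib differed among the 4 sensitive lines for OGG1 (adjusted p = 0.0095), NEIL3 (0.0107), XRCC1 (0.026) and NEIL2 (0.0476), by the F test in limma. This share is near the 37.1% of all tested genes that pass, and without the replicate block 1 member passed. By the interaction test it differed between sensitive and resistant lines for NEIL3 (log2 difference -2.39), NEIL1 (-0.81), PARP2 (-0.80) and PARP1 (-0.74). Of all tested genes 9.37% passed this test. Its units were pairs and not lines, and no member passed when any resistant pair was left out.

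In the experiments with a washout, 2 values lay far from the other 3 of their group by Dixon's criterion. POLB after washout minus DMSO was -0.76 on the log2 scale in H28, and XRCC1 after washout minus DMSO was -0.66 in MSTO-211H. Of 20 groups of 4 examined, 2 were marked, where chance marks about 1 in 20.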

How the results depend on the processing

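Over the sensitive lines, NEIL3 stayed called in all 20 alternatives, NEIL1, PARP1 and PARP2 in 19 each and XRCC1 in 14. Median-of-ratios scaling left 1 member called lower over the sensitive lines, 1 whose response differed from the resistant lines, 2 in H2052, 2 in H2452, 0 in MSTO-211H and 0 in both washout comparisons. Without the replicate block, 1 member differed among the sensitive lines and 2 were called in MSTO-211H. In the washout fit the block is the line, so differences between lines then entered the error, and 0 members were called in either comparison. Leaving out the block moved no other count of members by over 1.5 times. Of the 36 other genes, 10 were called lower with median-of-ratios scaling and 10 with upper-quartile scaling, alternatives chosen for these genes after seeing the data. A pseudocount of 1 left 2 called in H2052. A pseudocount of 50 gave 2 in MSTO-211H and 0 called higher in H28 and for both washout comparisons, and a filter within the fit gave 3 in MSTO-211H. Except for the scalings over the sensitive lines, the share of all tested genes was not counted for these alternatives.

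With 1 pair or line left out, counts ranged from 0 to 5 for the difference between classes, 2 to 4 for that among lines, 0 to 2 in H2452, and stood at 0 in H28 (lower or higher), in MSTO-211H and for members higher after washout than under palbociclib. They ranged from 0 to 1 for members below DMSO after washout. How many of all tested genes were called in these fits was not counted.

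Values that changed sign were all uncalled. POLB over the sensitive lines was 0.027 with median-of-ratios scaling. After washout against palbociclib, with a line left out, NEIL2 ranged from -0.0801 to 0.066 (without H28) and APEX1 from -0.163 to 0.0118 (without H2452). Against DMSO, NEIL2 ranged from -0.0755 (without H2452) to 0.171, and POLB from -0.0936 (without MSTO-211H) to 0.282. Between resistant and sensitive control levels, NEIL1 was -0.0112 with median-of-ratios scaling and -0.0708 without the untreated MeT-5A library, and NEIL2 -0.0728 with median-of-ratios scaling. The cause of these changes was not tested. Depth limits the lowest values, such as NEIL3 at 10 CP20M in a library of about 14800000 reads.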

Other observations

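For each member other than UNG, the 3 genes most alike over the 33 libraries are given by Pearson's r of log2(CP20M + 10), as a description only, since libraries share lines and experiments. NEIL3 was most like HASPIN (r = 0.96), ESCO2 (0.96) and KIF14 (0.95), all known as genes of mitosis or sister chromatid cohesion. Over the 11 paired differences it was most like CEP55 (0.97), RRM2 (0.95) and BUB1 (0.95). PARP2 was most like AL355075.1 (0.98), which shares 26 exonic bases with it, and then POLE2 (0.96) and LRR1 (0.96). POLE2, a subunit of a replicative polymerase, is also 1 of the long-patch genes called lower. POLE2 and LRR1 lie on the same chromosome as PARP2, and the part of this in the correlation was not tested. PARP1 was most like CD3EAP (0.96), RBM10 (0.95) and ERCC1 (0.95).

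For OGG1 and XRCC1 the closest genes overlap them. OGG1 was most like CAMK1 (0.98), with 2175 shared exonic bases, and then NUP85 (0.96) and FGD5-AS1 (0.96). XRCC1 was most like L34079.3 (0.97) and L34079.2 (0.96), which share 482 and 68 exonic bases with it on the opposite strand, and then NUP155 (0.95). The part of shared reads in these values was not tested.

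APEX1 was most like TRMT5 (0.97), TIMM9 (0.95) and AC006329.1 (0.94), POLB most like MBIP (0.96), CCDC8 (0.95) and WDR20 (0.95), NEIL1 most like AC068338.2 (0.95), AC232271.1 (0.94) and DMAP1 (0.94), and NEIL2 most like TMEM144 (0.91), TMEM182 (0.91) and ZNF579 (0.89). TRMT5 and TIMM9 lie on the chromosome of APEX1, AC068338.2 on that of NEIL1 and FGD5-AS1 on that of OGG1.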
